A study of Sus scrofa with 9 samples.

Results

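Heat shock and immediate early genes were followed on 9 single-colour porcine microarrays of T cells sorted from sow blood. Listed were 8 genes, namely HSPH1, HSPA8, HSP90AA1, HSPD1, HSPB1, FOS, JUN and EGR1. A probe was taken for a gene if its sequence accession, without the version, belonged to that gene in the RefSeq annotation of the pig assembly Sscrofa11.1. That gave 25 probes for 7 genes, out of 43603 probes on the array and 3052 genes named in this way. HSPD1 had 12 probes, HSP90AA1 had 6, HSPH1 and HSPB1 had 2 each, and HSPA8, FOS and JUN had 1 each. No probe carried an accession of EGR1, a zinc finger transcription factor, and it was not analysed here. The 3 fractions were CD3+CD4+CD8+ cells (DP below), CD3+CD4+ cells (CD4) and CD3+CD8+ cells (CD8), with 3 arrays each, which the study calls biological replicates. All cells came through a Percoll gradient and a cell sorter, so every group carries that handling and none is an unsorted or unhandled control. The sources used here do not give the purity of the fractions, the number and age of the sows, or any stimulation of the cells.

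Heat shock proteins are chaperones that hold, refold or hand on other proteins, and the inducible members of the family are transcribed by heat shock factor when proteins unfold. Immediate early genes are transcribed within minutes of a signal without new protein synthesis. In T cells FOS and JUN follow signals from the T cell receptor and are also known to be induced by dissociation and sorting. The genes were listed as a reading of that stress and of activation across the fractions.

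Values are log2 of the background-corrected signal relative to the 75th percentile of the array, so that 1 unit is a doubling and 0 is the 75th percentile. Levels of different probes are not comparable on such arrays, and a gene is given by its probe with the highest mean. The 75th percentile itself lay between 15.2 and 84.1 signal units, and 32.6% to 53.7% of probes were well above background per array. All 25 probes passed the filter that left 16024 probes for testing, and 24 of them were well above background on all 9 arrays. The exception, the dimmest HSPD1 probe, was above background on 8 arrays. The sorting markers followed the labels. CD4 averaged 2.14 in DP, 1.92 in CD4 and -2.04 in CD8, and CD8A averaged 3.47 in DP, 0.27 in CD4 and 5.35 in CD8. CD3D, CD3E and CD3G were above background on all 9 arrays.

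None of the 25 probes passed the test in any comparison of fractions. Differences were tested with limma in a single fit of all 9 arrays, and p-values were adjusted over the 16024 probes by Benjamini-Hochberg with a threshold of 0.05. In DP against CD4, 0 of 25 were called, where 0.293% of all tested probes were. In DP against CD8, 0 of 25 were called against 0.312% of all tested probes, and in CD4 against CD8, 0 of 25 against 0.437%. An F test over the 3 fractions called 0 of 25, against 0.612% of all tested probes. At an unadjusted p under 0.05 the count was 0 in DP against CD4, where the background was 4.84%. It was 2 in DP against CD8, a share of 8% beside a background of 6.52%, and 1 in CD4 against CD8, a share of 4% beside 4.54%. The F test gave 1 such probe, beside 6.18%. The arrays of the 2 fractions did not overlap for 1 probe in DP against CD4, 2 in DP against CD8 and 1 in CD4 against CD8, beside 10.1%, 9.79% and 8.01% of all tested probes. These shares are near or below those of all probes in each comparison. Differences above 0 were seen for 21 of 25 probes (84%) in DP minus CD4, beside 47.7% of all tested probes, and 12 of those 21 were probes of HSPD1 alone. In DP minus CD8 it was 14 of 25 (56%), beside 47.7%, and in CD4 minus CD8 12 of 25 (48%), beside 48.8%. Over the 7 genes the median difference was 0.10 for DP minus CD4, 0.22 for DP minus CD8 and 0.04 for CD4 minus CD8, against -0.02, -0.03 and -0.01 over all tested probes.

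**Figure D1:**
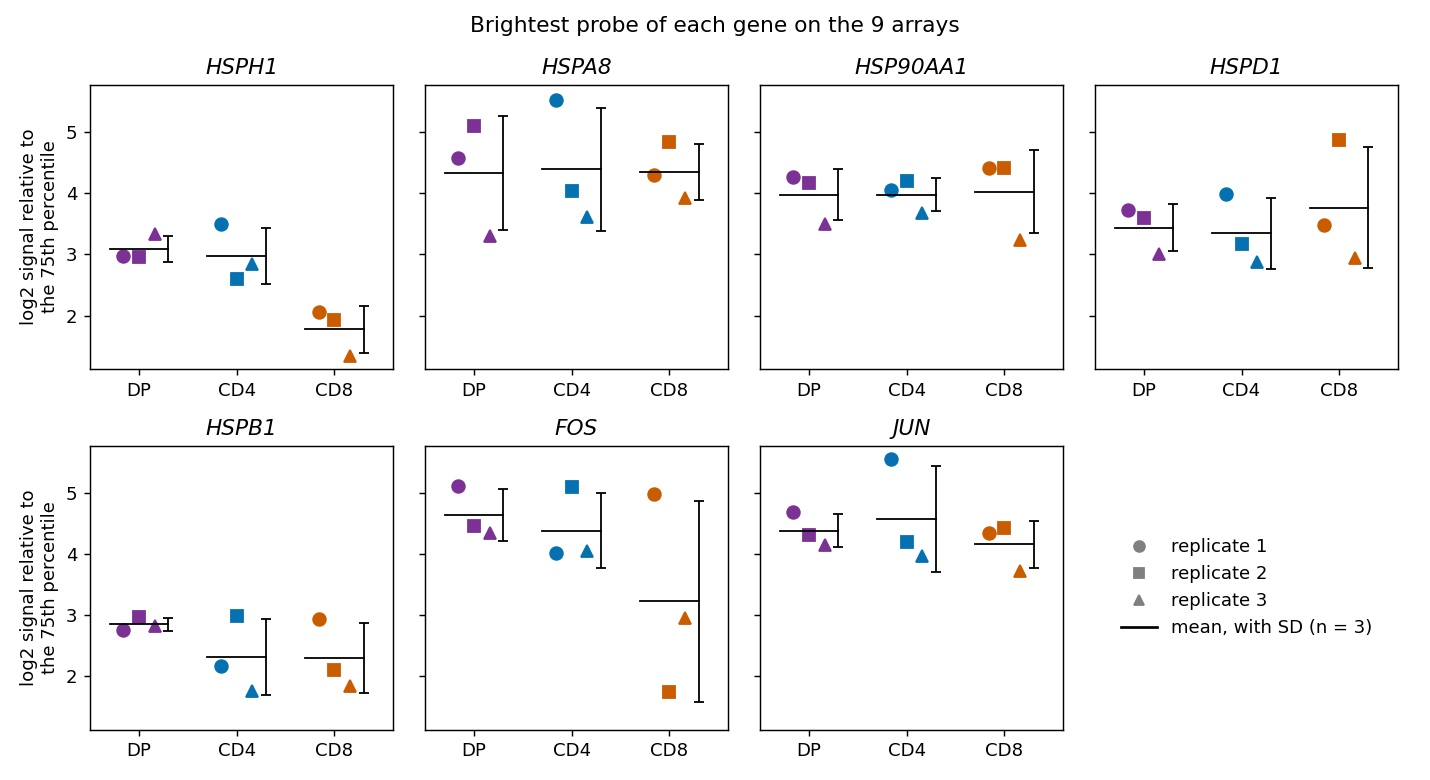
Level of the brightest probe of each of the 7 genes on each array, as log2 signal relative to the 75th percentile of the array, for the DP, CD4 and CD8 fractions. Symbols mark the replicate number, and the bar and whisker give the mean and SD of 3 arrays. HSPH1 is lower on all 3 CD8 arrays than on the other 6, while for the other 6 genes the fractions overlap.

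HSPA8 is the constitutive cytosolic chaperone of the Hsp70 family. Its level was 4.58, 5.10 and 3.30 on DP arrays 1, 2 and 3, 5.53, 4.03 and 3.60 on CD4 arrays, and 4.29, 4.84 and 3.93 on CD8 arrays. The lowest and highest values lay within DP and CD4, 2.22 units or 4.67-fold apart, and all 3 fractions overlapped. The means were 4.33 ± 0.93 in DP, 4.39 ± 1.01 in CD4 and 4.35 ± 0.46 in CD8 (SD, n = 3 each), in no order that exceeds the spread. DP minus CD4 was -0.06, with a 95% interval of -1.26 to 1.14. DP minus CD8 was -0.02 (interval -1.23 to 1.18), and CD4 minus CD8 was 0.04 (-1.17 to 1.24). Levels in DP from 2.40-fold lower to 2.21-fold higher than in CD4 lie within the first of these intervals.

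HSPH1, a large chaperone related to Hsp70 that releases its nucleotide, had the smallest p of the 7 genes in the F test. Its level was 2.97, 2.96 and 3.33 on DP arrays, 3.49, 2.59 and 2.84 on CD4 arrays, and 2.06, 1.92 and 1.34 on CD8 arrays. All 3 CD8 arrays lay below every DP and CD4 array, and DP and CD4 overlapped. The means were 3.09 ± 0.21 in DP, 2.98 ± 0.46 in CD4 and 1.77 ± 0.38 in CD8. DP exceeded CD8 by 1.31 (SE 0.39, 2.49-fold, interval 0.47 to 2.15), with an unadjusted p of 0.00495 and a limma adjusted p of 0.311, which did not pass. CD4 exceeded CD8 by 1.20 (SE 0.39, 2.30-fold, interval 0.36 to 2.04), with an adjusted p of 0.526. Between DP and CD4 the difference was 0.11, with an interval of -0.73 to 0.95. The F test over the fractions had an adjusted p of 0.322.

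The arrays lay on 3 slides, and slides 2 and 3 held all 3 fractions. Within slide 2 HSPH1 differed by 0.97 for DP minus CD8 and 0.60 for CD4 minus CD8. Within slide 3 those differences were 1.99 and 1.83. Leaving out any 1 array kept DP minus CD8 between 1.096 and 1.46 and CD4 minus CD8 between 0.946 and 1.39. The other HSPH1 probe gave 0.56 for DP minus CD8 and 0.54 for CD4 minus CD8, which are smaller. On it the arrays read 0.66, 1.18 and 2.05 in DP, 1.42, 1.35 and 1.06 in CD4, and 0.89, 1.38 and -0.05 in CD8, and these overlapped. Both probes had their lowest value on CD8 array 3, and they correlated at r = 0.672 over the 9 arrays, as a description. In sorted bulk RNA, fewer cells that carry a transcript and less transcript per cell cannot be told apart.

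Some markers listed for other cells differed between the fractions, and others overlapped. They are given as sums, in which brighter probes weigh most, although levels of different probes are not comparable. A sum therefore does not measure the number of such cells. The summed level of 2 named B cell markers, CD79A and MS4A1, in multiples of the 75th percentile signal, lay between 0.395 and 2.76 on DP arrays, 0.997 and 2.25 on CD4 arrays, and 5.32 and 12.3 on CD8 arrays. CD79A carried that difference, with means of -0.05 in DP, 0.17 in CD4 and 3.15 in CD8. MS4A1 did not follow it, at -1.68 in DP, -2.56 in CD4 and -1.85 in CD8, and was above background on 5 of 9 arrays. The summed level of 4 natural killer markers was 40.6 to 102.9 in DP, 4.52 to 12.3 in CD4 and 25.6 to 70.4 in CD8. FCGR3A carried most of it, with means of 5.87 in DP, 3.06 in CD4 and 5.15 in CD8. KLRK1 averaged 2.22 in DP, -2.98 in CD4 and 3.39 in CD8. KLRB1 was above background on 1 of 9 arrays, and NCR1 had no probe above background on any array. The summed level of 9 monocyte and granulocyte markers was 0.957 to 4.69 in DP and 2.14 to 2.43 in CD4. It was 1.17 to 6.75 in CD8, and the ranges overlapped. Only 2 of the 9 genes were tested and neither was called, and 4 had no probe above background on any array. For 3 platelet markers the sum was 2.16 to 3.31 in DP, 2.33 to 3.26 in CD4 and 1.12 to 3.57 in CD8. These ranges overlapped too, and neither of the 2 platelet genes tested was called. Of 5 erythroid markers listed, 0 were named on the array. Whether cells of these kinds were present was not tested, nor was any part of them in the HSPH1 values.

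HSP90AA1, the stress-inducible cytosolic form of Hsp90, did not separate the fractions on its brightest probe. Its level was 4.26, 4.16 and 3.50 on DP arrays, 4.06, 4.21 and 3.67 on CD4 arrays, and 4.41, 4.42 and 3.24 on CD8 arrays. The lowest array of each fraction was array 3, and the fractions overlapped. The means were 3.97 ± 0.41 in DP, 3.98 ± 0.28 in CD4 and 4.02 ± 0.68 in CD8. DP minus CD4 was -0.0028 (interval -0.89 to 0.89), DP minus CD8 was -0.05 (-0.93 to 0.84) and CD4 minus CD8 was -0.04 (-0.93 to 0.84).

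The 6 HSP90AA1 probes did not all give the same picture. For DP minus CD8 they ran from -0.05 to 0.88 with a median of 0.52, and 5 of 6 lay above 0. For DP minus CD4 they ran from -0.0028 to 0.34 with a median of 0.11, and 5 of 6 lay above 0. For CD4 minus CD8 the range was -0.04 to 0.58 and the median 0.36, again with 5 of 6 above 0. The fifth probe by brightness had 3.66, 3.58 and 3.79 on DP arrays, 3.06, 3.62 and 3.33 on CD4 arrays, and 2.38, 2.83 and 3.20 on CD8 arrays. On it every DP array exceeded every CD8 array, with a difference of 0.88, an unadjusted p of 0.029 and an adjusted p of 0.664. Correlations between pairs of these probes over the 9 arrays ran from -0.359 to 0.858, with a median of 0.417 over 15 pairs. The probes share their 9 RNA samples and are not replicates of a fraction.

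HSPB1 encodes a small heat shock protein that holds unfolded proteins and binds actin. Its level was 2.75, 2.97 and 2.83 on DP arrays, 2.17, 2.98 and 1.76 on CD4 arrays, and 2.94, 2.11 and 1.85 on CD8 arrays. The DP arrays lay close together near the top of the range, while 1 CD4 and 1 CD8 array reached the same level. The means were 2.85 ± 0.11 in DP, 2.31 ± 0.62 in CD4 and 2.30 ± 0.57 in CD8. DP minus CD4 was 0.54 (SE 0.43, interval -0.39 to 1.47) and DP minus CD8 was 0.55 (SE 0.43, interval -0.38 to 1.48, adjusted p 0.995). CD4 minus CD8 was 0.01, with an interval of -0.92 to 0.94. DP minus CD4 was 0.269 without CD4 array 3 and 0.879 without CD4 array 2, and DP minus CD8 was 0.327 without CD8 array 3 and 0.873 without CD8 array 1. The other HSPB1 probe gave -0.0038 for DP minus CD4 and 0.84 for both DP minus CD8 and CD4 minus CD8. The pair of probes did not follow each other across arrays (r = -0.0817).

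HSPD1 encodes the mitochondrial chaperonin, which folds imported proteins together with its partner HSPE1. Its brightest probe had levels of 3.72, 3.59 and 3.00 on DP arrays, 3.99, 3.17 and 2.87 on CD4 arrays, and 3.47, 4.87 and 2.95 on CD8 arrays. CD8 array 2 was the highest of the 9, and the other 2 CD8 arrays lay within the range of DP and CD4. The means were 3.44 ± 0.39 in DP, 3.34 ± 0.58 in CD4 and 3.76 ± 0.99 in CD8. The difference DP minus CD4 was 0.10 (interval -0.99 to 1.18), DP minus CD8 was -0.32 (-1.41 to 0.76) and CD4 minus CD8 was -0.42 (-1.51 to 0.66). Without CD8 array 2 the last 2 differences were 0.227 and 0.132, on the other side of 0.

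The 12 HSPD1 probes mostly followed each other over the arrays, with pairwise r from -0.0977 to 0.971 and a median of 0.747 over 66 pairs. CD8 array 2 was the highest array for 10 of the 12. For DP minus CD4 all 12 lay above 0, from 0.10 to 0.56 with a median of 0.33, and the arrays did not overlap on 1 of them. For CD4 minus CD8 all 12 lay below 0, from -0.72 to -0.19 with a median of -0.44. For DP minus CD8, 9 of 12 lay below 0, with a median of -0.08. No HSPD1 probe reached an unadjusted p under 0.05 in a comparison of fractions. The ninth probe by brightness stood apart in its spread, from -0.93 to 3.33 over the 9 arrays, a 19.2-fold range. Its SD about the fraction means of 1.64 was at the 98.2 percentile of all tested probes.

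**Figure D2:**
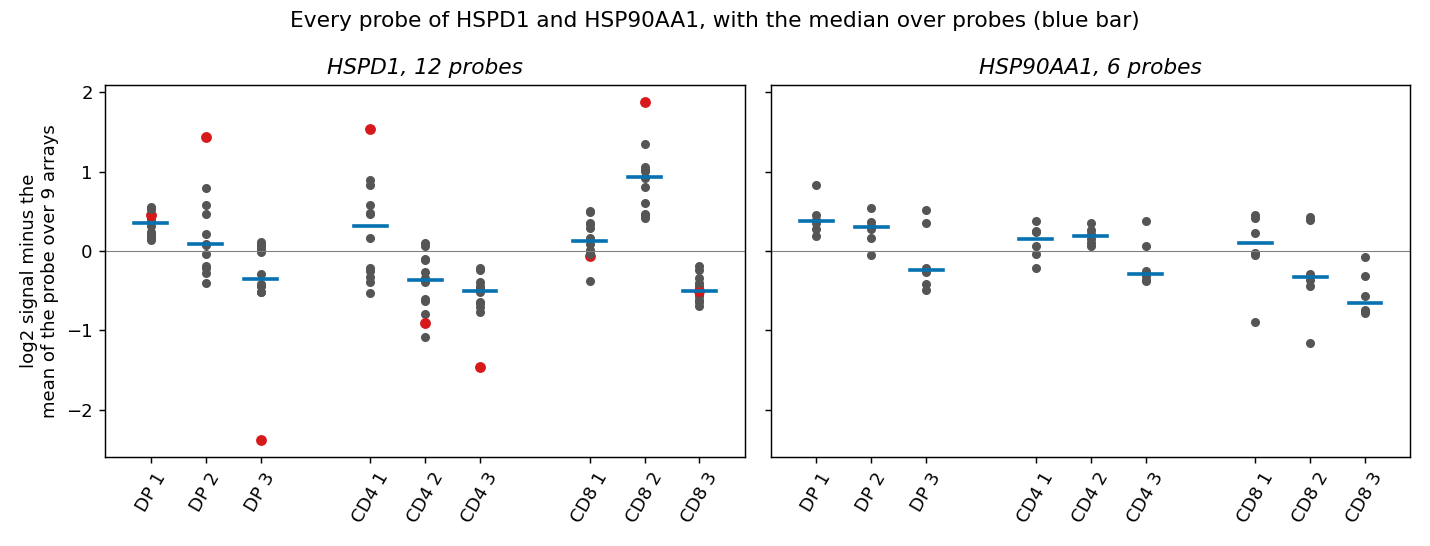
Each dot is a probe of HSPD1 (12 probes, left) or HSP90AA1 (6 probes, right) on an array, as log2 signal minus the mean of that probe over the 9 arrays, and blue bars give the median over probes. Red marks the HSPD1 probe with the 19.2-fold range. The HSPD1 probes are raised together on CD8 array 2, and the HSP90AA1 probes are lowest by their median on CD8 array 3.

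FOS, a subunit of the AP-1 transcription factor, varied more between arrays than the brightest probe of any other listed gene. Its level was 5.12, 4.45 and 4.33 on DP arrays, 4.02, 5.09 and 4.04 on CD4 arrays, and 4.99, 1.74 and 2.95 on CD8 arrays. The 6 DP and CD4 arrays lay between 4.02 and 5.12, CD8 array 1 lay in that range, and CD8 arrays 2 and 3 were below all of them. The range over the 9 arrays was 3.38, or 10.4-fold, and the SD about the fraction means of 1.04 was at the 86.1 percentile of tested probes. The means were 4.63 ± 0.42 in DP, 4.38 ± 0.61 in CD4 and 3.23 ± 1.64 in CD8. DP exceeded CD8 by 1.41 (SE 0.66, 2.65-fold, interval -0.013 to 2.83), with an adjusted p of 0.778. CD4 minus CD8 was 1.16 (interval -0.26 to 2.58, adjusted p 0.999) and DP minus CD4 was 0.25 (-1.17 to 1.67, and 0.0107 without DP array 1).

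The size of the FOS difference turned on single CD8 arrays. Without CD8 array 1, DP minus CD8 was 2.29 with an adjusted p of 0.135, and CD4 minus CD8 was 2.04. Without CD8 array 2 they were 0.664 and 0.412. Within slide 2, DP minus CD8 was 1.09 and CD4 minus CD8 was 1.72, and within slide 3 they were 1.38 and 1.08. FOS on CD8 array 1 thus stood 3.25 units above CD8 array 2, from the same slide.

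JUN is the other AP-1 subunit on the list. Its level was 4.69, 4.31 and 4.15 on DP arrays, 5.56, 4.19 and 3.96 on CD4 arrays, and 4.34, 4.42 and 3.72 on CD8 arrays. CD4 array 1 was the highest of the 9 and CD8 array 3 the lowest, and the fractions overlapped. The means were 4.38 ± 0.28 in DP, 4.57 ± 0.86 in CD4 and 4.16 ± 0.38 in CD8. DP minus CD4 was -0.19 (interval -1.14 to 0.76), DP minus CD8 was 0.22 (-0.73 to 1.17) and CD4 minus CD8 was 0.41 (-0.54 to 1.36). DP minus CD8 was 0.0013 without CD8 array 3, and CD4 minus CD8 was -0.0845 without CD4 array 1. FOS and JUN correlated at r = 0.131 over the 9 arrays, which share 3 fractions and 3 slides.

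**Figure D3:**
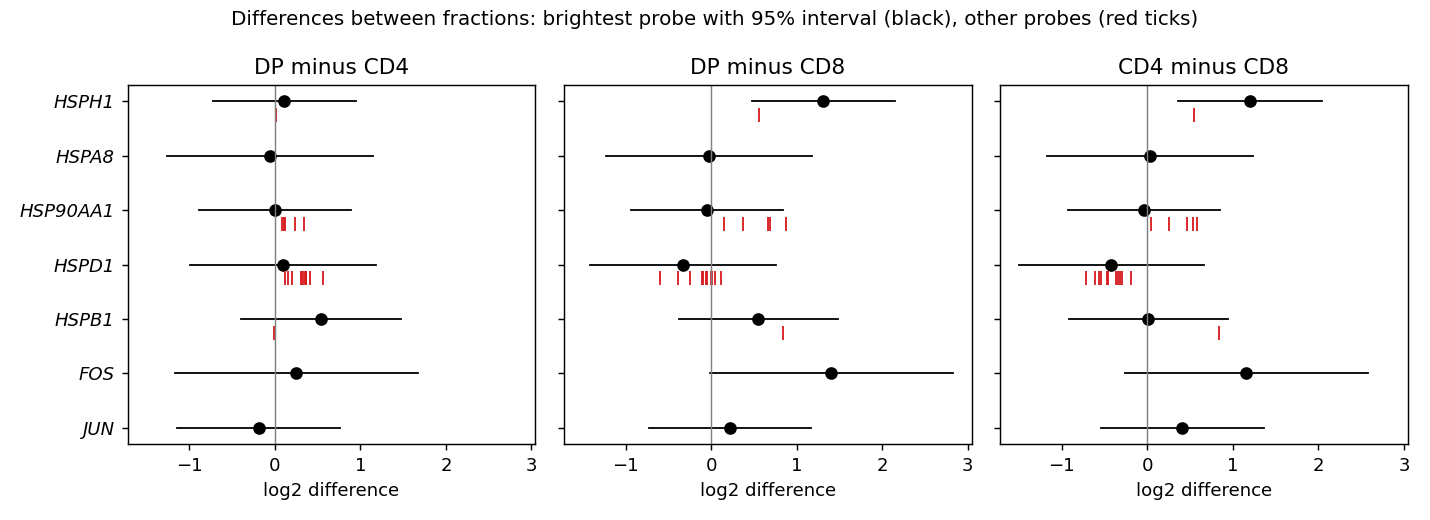
Differences between fractions on the log2 scale for the brightest probe of each gene (black points, with 95% intervals from the limma fit) and for its other probes (red ticks), for DP minus CD4, DP minus CD8 and CD4 minus CD8. The intervals of HSPH1 for DP minus CD8 (0.47 to 2.15) and CD4 minus CD8 (0.36 to 2.04) lie above 0 before adjustment, and the others include 0.

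By replicate number no probe passed either. HSPA8, HSP90AA1, HSPD1, HSPB1 and JUN had their lowest mean in the arrays numbered 3, by their brightest probes. HSPH1 and FOS had it in those numbered 2, close to those numbered 3 (2.49 against 2.50, and 3.76 against 3.78). The other HSPB1 probe was highest in those numbered 3, at 0.995, beside 0.505 and 0.131 in those numbered 1 and 2. Each gene was set to its own mean over the arrays, and the median of the 5 heat shock genes was taken. It was 0.27, 0.35 and -0.49 on DP arrays 1, 2 and 3, 0.47, -0.02 and -0.64 on CD4 arrays, and -0.04, 0.43 and -0.64 on CD8 arrays. By this median array 3 was the lowest of each fraction, in the numbering of the scanner files. The deposited table numbers the CD8 arrays otherwise, and there the array with 0.43 is number 3, so the pattern in CD8 rests on a numbering that is not settled. All 3 arrays numbered 3 in the scanner files lay on slide 3, together with CD4 array 1, which was the highest at 0.47. The share of all tested probes with their lowest mean in the arrays numbered 3 was 47%, and among the listed genes it was 19 of 25 probes, of which 12 were probes of HSPD1 read on the same RNA.

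The replicate number was tested with limma as a second factor beside fraction. It called 0 of 25 probes, against 0.206% of all tested probes. At an unadjusted p under 0.05 there were 4 of 25, a share of 16% beside a background of 21.6%. HSPA8 averaged 4.80, 4.66 and 3.61 over the arrays numbered 1, 2 and 3, with an adjusted p of 0.203. HSP90AA1 averaged 4.24, 4.26 and 3.47, with an adjusted p of 0.207. HSPH1 averaged 2.84, 2.49 and 2.50, with an adjusted p of 0.733. The labels do not say what a number stands for.

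Likeness to other genes was measured as Pearson's r over the 9 arrays against 1502 other named genes, each by its brightest tested probe. It is a description over arrays that share fractions and slides. HSPH1 was most like DBF4 (0.949), HIF1A (0.938) and SLC30A1 (0.905). HSPA8 was most like PSMA5 (0.978), RCSD1 (0.975) and FTHL17 (0.974). The highest for HSP90AA1 were HSD17B7 (0.955), PRDX6 (0.948) and FAM177A1 (0.933), and those for HSPD1 were VDAC2 (0.980), NGDN (0.967) and TUBA1B (0.922). HSPB1 came closest to ACSL1 (0.895), UBL5 (0.861) and ARPC2 (0.860). FOS came closest to SELENOT (0.941), AKR1B1 (0.937) and CD9 (0.930), and JUN to GGTA1P (0.845), PPP4R3B (0.807) and ZBTB9 (0.805). Among the 7 genes themselves the highest r was between HSPA8 and JUN, at 0.766, and the lowest between HSPD1 and FOS, at -0.497.

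Other chaperones were read from a list of 60 genes, of which 18 were named on the array and 14 were tested. None was called in any of the 3 comparisons, beside 0.293%, 0.312% and 0.437% of all tested probes. At an unadjusted p under 0.05 there were 0 in DP against CD4, 3 in DP against CD8 and 1 in CD4 against CD8, beside 4.84%, 6.52% and 4.54% of all tested probes. The medians were 0.10 for DP minus CD4, -0.19 for DP minus CD8 and -0.33 for CD4 minus CD8. In DP minus CD8, 5 of 14 lay above 0, beside 47.7% of all tested probes, and in CD4 minus CD8, 3 of 14 did, beside 48.8%. HSPH1 lay above 0 in both of these, unlike most of the 14, each read by its brightest tested probe. By their brightest probes HSPB1 also lay above 0 in both, HSP90AA1 and HSPD1 below 0 in both, and HSPA8 on either side. Of the 6 HSP90AA1 probes, however, 5 lay above 0 in each.

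HSPA6 is a member of the Hsp70 family that is induced by stress. It had 0.55, -0.30 and -1.53 on DP arrays, -1.13, -0.39 and -0.29 on CD4 arrays, and 2.07, 1.42 and 0.24 on CD8 arrays. All CD8 arrays exceeded all CD4 arrays, whereas DP array 1 lay above CD8 array 3, and the probe was above background on 2 of 3 DP arrays. DP minus CD8 was -1.67 (SE 0.62, adjusted p 0.566) and CD4 minus CD8 was -1.85 (SE 0.62, adjusted p 0.587). With another background correction, normexp, these were -0.490 and -0.681.

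HSPE1, the partner of HSPD1 in the mitochondrion, had 5.31, 5.15 and 5.32 on DP arrays, 5.28, 5.79 and 5.54 on CD4 arrays, and 6.02, 6.94 and 5.56 on CD8 arrays. Every DP array lay below every CD8 array, and CD8 array 2 was the highest of the 9, as for HSPD1. DP minus CD8 was -0.91 (SE 0.38, adjusted p 0.678), and it was -0.528 without CD8 array 2 and -0.601 with normexp. HSP90AB1, the constitutive form of Hsp90, had 6.25, 5.74 and 6.43 on DP arrays, 5.86, 6.82 and 6.24 on CD4 arrays, and 7.19, 7.47 and 6.46 on CD8 arrays. CD8 array 2 was again the highest, and every DP array lay below every CD8 array. DP minus CD8 was -0.90 (adjusted p 0.703), and it was -0.684 without CD8 array 2 and -1.19 without CD8 array 3. CD4 minus CD8 was -0.74 (adjusted p 0.999). HSP90AB1 had 6 probes, HSPE1 had 4 and DNAJB11, below, had 3, and only the brightest tested probe of each was read. FKBP4, a cochaperone of Hsp90, and DNAJB11, a cochaperone of the endoplasmic reticulum, had the smallest unadjusted p of the list for DP minus CD4, with differences of 0.53 and 0.48 (unadjusted p 0.273 and 0.277). The FKBP4 difference was 0.216 without CD4 array 3 and 0.287 with normexp, and the DNAJB11 difference was 0.245 without DP array 1 and 0.864 without DP array 2.

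Other immediate early genes were read from a list of 46, of which 18 were named and 16 were tested. None was called, beside the same 0.293%, 0.312% and 0.437% of all tested probes. At an unadjusted p under 0.05 there were 2 in DP against CD4, 3 in DP against CD8 and 0 in CD4 against CD8, beside 4.84%, 6.52% and 4.54%. The medians were 0.31 for DP minus CD4, 0.35 for DP minus CD8 and -0.000764 for CD4 minus CD8. The arrays did not overlap for 5 of 16 genes in DP against CD4, 2 in DP against CD8 and 0 in CD4 against CD8, beside 10.1%, 9.79% and 8.01% of all tested probes. Of the 5, DUSP6, KLF6, TNFAIP3 and TNF were higher in DP, and BTG1 was lower, by a difference of -0.56. KLF6 and BTG1 are named after their values were seen. KLF6 and BTG1 had 4 probes each, and TNF and NFKBIA 2 each, and only the brightest tested probe was read.

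DUSP6, a phosphatase of the kinase ERK, had 4.17, 4.95 and 4.43 on DP arrays, 2.55, 3.85 and 1.98 on CD4 arrays, and 3.52, 4.44 and 2.68 on CD8 arrays. Every DP array exceeded every CD4 array, and CD8 overlapped both. DP minus CD4 was 1.72 (SE 0.54, 3.30-fold, interval 0.56 to 2.89), with an adjusted p of 0.383. TNF, an inflammatory cytokine that activated T cells secrete, had 3.73, 2.76 and 2.02 on DP arrays, 1.01, 0.60 and -0.14 on CD4 arrays, and 3.15, -0.998 and -0.48 on CD8 arrays. Here too DP lay above CD4 on all arrays, by 2.35 (SE 0.88, 5.08-fold, adjusted p 0.651), or by 1.48 with normexp. As for FOS, CD8 array 1 was the highest of the CD8 arrays, and DP minus CD8 was 2.28 with an adjusted p of 0.615. It was 3.57 without CD8 array 1 and 1.497 without CD8 array 2.

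TNFAIP3 and NFKBIA both encode inhibitors of NF-kappaB signalling. TNFAIP3 had 5.85, 5.44 and 5.91 on DP arrays, 4.99, 5.09 and 4.73 on CD4 arrays, and 5.42, 4.24 and 3.74 on CD8 arrays. The DP arrays lay above all others, by 1.27 against CD8 (SE 0.42, 2.40-fold, adjusted p 0.446). NFKBIA had 4.89, 4.63 and 4.99 on DP arrays, 4.77, 4.81 and 4.001 on CD4 arrays, and 4.17, 4.03 and 3.31 on CD8 arrays. DP exceeded CD8 on all arrays, by 1.00 (SE 0.37, adjusted p 0.586), and overlapped CD4. CD4 minus CD8 was 0.69 for NFKBIA and -0.75 for DUSP6, neither of which passed. That of NFKBIA was 0.425 without CD8 array 3, and that of DUSP6 was -1.28 without CD4 array 2, -0.303 without CD8 array 2 and -0.423 with normexp.

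**Figure D4:**
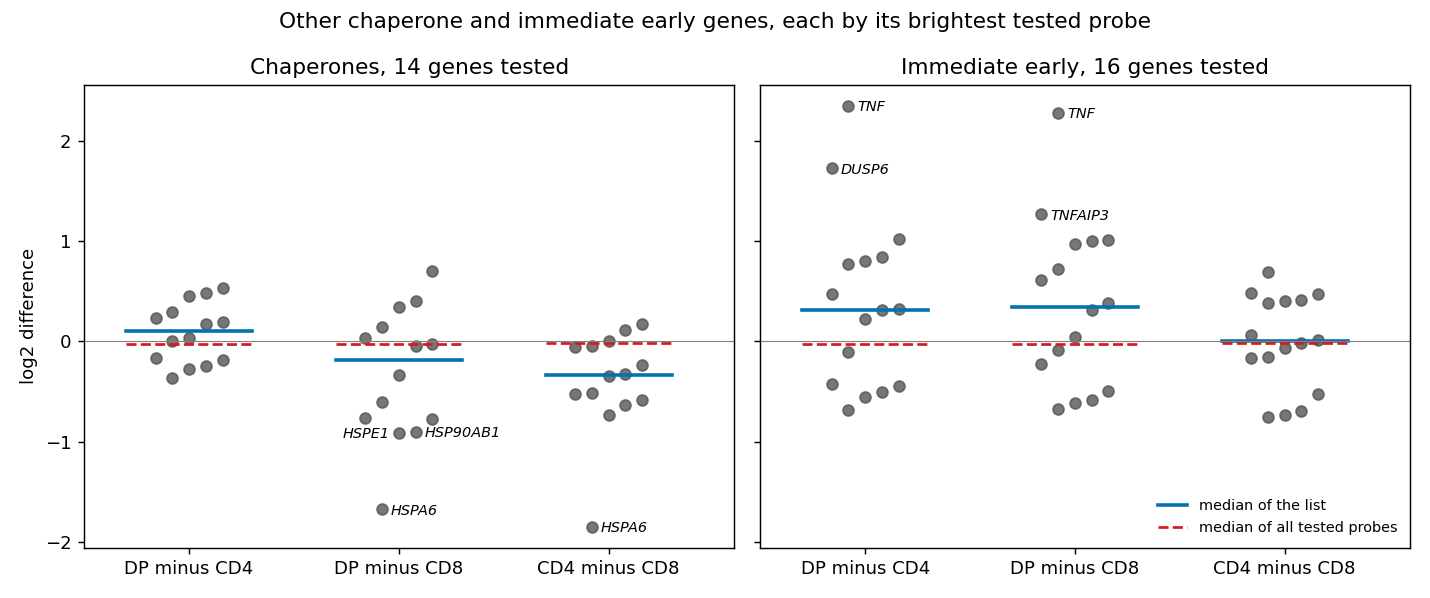
Log2 differences of the other chaperone genes (14 tested, left) and the other immediate early genes (16 tested, right), each by its brightest tested probe, for DP minus CD4, DP minus CD8 and CD4 minus CD8. Blue bars give the median of the list and red dashes that of all tested probes. The chaperone median is lowest in CD4 minus CD8, at -0.33, and the immediate early median lies above 0 in DP minus CD4 and DP minus CD8.

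Of 15 T cell activation markers 7 were named and 3 tested. CD40LG, the ligand by which helper T cells stimulate B cells, passed in DP against CD8, by 4.54 (limma adjusted p 0.0093). It was the 1 of the 3 called there, beside 0.312% of all tested probes. It had 5.05, 4.12 and 3.19 on DP arrays, 2.68, 3.09 and 2.18 on CD4 arrays, and 0.91, -0.81 and -1.35 on CD8 arrays. CD4 exceeded CD8 on all arrays as well, by 3.07 (limma adjusted p 0.0505), which did not pass. DP minus CD4 was 1.47 (limma adjusted p 0.829). CD69, an early surface marker of activation, averaged -0.91 in DP, 0.53 in CD4 and 0.74 in CD8. Its DP arrays were at -0.02, 0.71 and -3.41, above background on 2 of 3, and the DP mean was 0.349 without array 3. ICOS, a costimulatory receptor, averaged 3.13 in DP, 1.82 in CD4 and 1.99 in CD8, and neither passed. IL2RA and IL2, the chain of the interleukin-2 receptor raised on activated T cells and its ligand, were above background on no array. TFRC was above background on 1 array and CTLA4 on 3, and neither was tested.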

How the data were processed

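Per the labels, each array holds Cy3-labelled complementary DNA amplified from total RNA. Per the submitters' processing notes, spots were read by Agilent Feature Extraction 11.0.1.1. The deposited processed signal of each spot is a linear intensity after background correction. The deposited table of processed values is on a log2 scale. Every column of it has a median of 2.605, and its 3 CD8 columns follow other CD8 scanner files than those of their own number. It served as an alternative.

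Control spots and outlier spots (1 to 12 per array) were left out, log2 values of a probe's spots were averaged, and the array's 75th percentile was subtracted. Saturated spots were not found. Probes were tested if well above background on all 3 arrays of a fraction with at least 2 values per fraction. Fits used limma 3.58.1 in R 4.3.3 (lmFit, eBayes with trend), tested on simulated data, and tables and figures used Python 3.11.15. An accession named 6730 probes (15.4%), 3323 of them tested. Another planned background correction used the median signal, because the mean signal was not in the columns at hand.

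Every probe of the listed genes was included, singly or in the ranges and counts of its gene. From the wider lists any called gene was to be named, otherwise the 2 with the smallest p per comparison, and for each listed gene the 3 most correlated genes. Members and lists were chosen with earlier results of these data known. Alternatives were normexp with an offset of 50, quantile normalization, another percentile, 3 other filters, the deposited log2 table, no trend, replicate and slide blocks, and leaving out each array. P-values measure only the spread between these arrays, whose number limits the precision. A further B cell marker is not reported here.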

Additional observations from a re-analysis of the deposited data

How the results depend on the processing

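No probe of the listed genes was called in a comparison of fractions under any alternative run. Counts over all tested probes moved as follows, in the order DP against CD4, DP against CD8, CD4 against CD8 and the F test over the fractions. The main counts were 47, 50, 70 and 98. With normexp they were 1, 7, 6 and 7, with probes above background on all 9 arrays 12, 5, 12 and 18, and with a slide block 2, 2, 38 and 32. No filter gave 109, 87 and 201 (without CD4 against CD8, which stayed within 1.5 times). For DP against CD8 the common-probe percentile gave 22, and 24 were called from the deposited table. Leaving out 1 array gave 2 to 55, 1 to 51, 31 to 81 and 52 to 114.

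The labels do not tie same-numbered arrays to an animal, batch or day. The correlation of their deviations from the fraction means ran from -0.0667 to 0.647 and was not above 0.1 for every pair, so the numbers were not taken as pairs. Between arrays of different numbers it ran lower, from -0.572 to 0.424. In the limma test of replicate number 21.6% of all tested probes had an unadjusted p under 0.05. The main fit has no block and leaves that spread in its error. Arrays numbered 2 share a slide, as do those numbered 3. With the replicate block the counts over all probes were 144, 83, 110 and 212. With the numbers of the deposited table as the replicate block, DP against CD4 gave 30 and DP against CD8 gave 21. HSPH1 had its lowest adjusted p with the replicate block, 0.187 for DP minus CD8 and 0.306 for CD4 minus CD8, and DUSP6 reached 0.0548 for DP minus CD4. No listed gene passed with a block.

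The test of replicate numbers called 33 probes. It called 1208 with no filter, 71 with the common-probe percentile and 59 with probes above background on at least 1 array. It called 1 without the variance trend, 1 with normexp, 0 with the deposited table and 0 with that table's numbers. Of the listed genes 1 probe was called there with no filter, the HSPD1 probe of widest range (adjusted p 0.0132), where 2.77% of all probes were called.

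Some gene differences changed sign. HSPA8 for DP minus CD8 was 0.259 with normexp, 0.0465 with quantile normalization, 0.030 with the common-probe percentile and 0.0489 with the deposited table. HSP90AA1 gave 0.0445 for DP minus CD4 with normexp. For DP minus CD8 it gave 0.198, 0.0261, 0.00757 and 0.0252 under the same 4 settings in that order. For CD4 minus CD8 it gave 0.153, 0.060, 0.0333 and 0.0602, and 0.200 with a slide block. With a slide block HSPD1 was -0.132 and FOS -0.0836 for DP minus CD4. Leaving out 1 array, DP minus CD4 ran from -0.0790 to 0.368 for HSPH1, -0.453 to 0.510 for HSPA8, -0.156 to 0.234 for HSP90AA1, -0.139 to 0.418 for HSPD1 and -0.494 to 0.306 for JUN. DP minus CD8 ran from -0.412 to 0.489 for HSPA8, -0.437 to 0.191 for HSP90AA1 and -0.733 to 0.227 for HSPD1. CD4 minus CD8 ran from -0.534 to 0.429 for HSPA8, -0.434 to 0.154 for HSP90AA1, -0.828 to 0.132 for HSPD1, -0.327 to 0.332 for HSPB1 and -0.0845 to 0.715 for JUN. The cause of these changes was not tested. The other 345 gene differences over the settings with all arrays, and 271 with 1 array left out, kept their direction and side of the threshold. HSPA6 had no value with probes above background on all 9 arrays. The values of TNF (DP minus CD8), HSP90AB1 and CD69 without single arrays were added after seeing the data.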
